A study of Homo sapiens with 2 samples.

Results

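The 10 genes of polyamine metabolism described here were ODC1, AMD1, SRM, SMS, SAT1, PAOX, SMOX, OAZ1, AZIN1 and ARG2. They were chosen by name, and every probe set that the platform annotation assigns to 1 of them alone was used, which gave 22 of the 54675 probe sets on the array and 10 of 19775 genes. 1 further probe set, annotated with SAT1 and a second gene, was not used. RNA came from A549 cells, an established human lung adenocarcinoma line, kept for 12 days in spheroid culture or for 12 days as a monolayer. Spheroid cells were suspended in DMEM/F12 without serum, with N2 supplement, EGF at 20 ng/ml and bFGF at 10 ng/ml, whereas the monolayer was attached and fed DMEM with 10% FBS. The effects of attachment, medium, serum, supplement and the 2 growth factors therefore cannot be told apart. Each culture was read on 1 Affymetrix Human U133 plus 2.0 array, so no difference below has a replicate check and no p-value was computed.

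Putrescine, spermidine and spermine are small cations that bind RNA and DNA and that growing cells need for translation. ODC1 makes putrescine from ornithine, AMD1 supplies decarboxylated S-adenosylmethionine, and SRM and SMS use it to build spermidine and then spermine. SAT1 acetylates the higher polyamines for export or for oxidation by PAOX, SMOX oxidises spermine directly with release of hydrogen peroxide, and the antizyme OAZ1 sends ODC1 protein to the proteasome unless AZIN1 holds it. Several of these steps are known to be set by translation and protein turnover, which RNA signals do not show. N2 supplement holds putrescine, and bovine serum holds an amine oxidase that acts on spermidine and spermine. Polyamine levels themselves were not measured.

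Promoter sequence is shown for the spermidine and spermine synthases, whose RNA signals differed in size of change, and for ODC1, whose signal hardly differed. Sequences are from RefSeq on GRCh38.p14, written 5′ to 3′ on the strand of the gene, and capitals mark CACGTG, the E-box to which MYC with MAX can bind, and CCAAT or its reverse complement ATTGG. RefSeq windows of 300 bases, 250 before and 50 after a start, were matched for 7 of the 10 genes (ARG2, ODC1, AMD1, SRM, SMS, SAT1 and OAZ1), with 10 start sites. The SRM and SMS stretches are the 250 bases before the start, chr1:11060019-11060268 on the minus strand and chrX:21940459-21940708 on the plus strand. The ODC1 fragments are 30 bases each around the E-boxes of the start at 10448012, at chr2:10448024-10448053 and chr2:10447990-10448019 on the minus strand.
SRM upstream: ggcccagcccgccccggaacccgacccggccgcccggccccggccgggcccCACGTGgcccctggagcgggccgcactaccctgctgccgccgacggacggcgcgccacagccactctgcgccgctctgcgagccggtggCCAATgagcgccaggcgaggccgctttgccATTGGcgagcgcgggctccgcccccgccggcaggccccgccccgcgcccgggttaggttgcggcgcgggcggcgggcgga
SMS upstream: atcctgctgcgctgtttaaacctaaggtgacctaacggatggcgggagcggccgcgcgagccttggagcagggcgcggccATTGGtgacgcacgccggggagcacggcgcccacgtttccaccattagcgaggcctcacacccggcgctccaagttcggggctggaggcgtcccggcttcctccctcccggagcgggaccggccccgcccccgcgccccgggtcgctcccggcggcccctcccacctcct
ODC1 E-box before the start: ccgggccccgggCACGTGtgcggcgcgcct
ODC1 E-box after the start: ggcctgcggagaCACGTGgtcgccgagcgg
The stretch before SRM held 1 CACGTG, with its first base at position -199 from the start, and 2 CCAAT motifs, counting both strands. The stretch before SMS held 1 such motif, as ATTGG, and no CACGTG. In the window of the ODC1 start at 10448012 CACGTG began at -29 and at 5, and the window at the other ODC1 start, 10448327, held none. Both ODC1 E-boxes lie downstream of 10448327 on the minus strand, inside the span of the gene. CACGTG was in 2548 of all 35116 windows (7.26%) and CCAAT, on either strand, in 12155 (34.6%). These letters are a description of the sequence and mark no measured binding.

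Signals were deposited as MAS5 values on a linear scale, with a mean of 500.1 on each array once the lowest and highest 2% of probe sets were left out. The median signal, 119 on the spheroid array and 108 on the monolayer array, served as a floor to which lower values were raised, and a ratio with 1 array at this floor is a lower bound ("at least"). Where a gene had several probe sets, the brightest by mean log2 signal stood for it. All 8 epithelial and A549 marker genes were above the floor in both cultures. Of 6 hepatoma markers, examined because a hepatoma line is named in the free text deposited with each sample, 3 were above the floor in spheroid culture and 1 in monolayer. Their summed signal was 5440 in spheroid culture and 504 in monolayer, and most of the spheroid sum was ALB (4639 in spheroid culture and 23.4 in monolayer), while GPC3, APOA2 and TTR were under the floor in both. CDKN2A, which A549 cells are known to have lost, read 251 in spheroid culture, above the floor, and 85.9 in monolayer, below it. Whether the spheroid sample also held RNA of another cell line was not tested, and neither was the part of these markers in the values below. Every ratio of spheroid over monolayer is subject to this limit. Leukocyte, fibroblast and endothelial lists had 1 gene each above the floor, in both cultures.

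Of the 10 genes, SMOX and SMS were at least 2-fold lower in spheroid culture, PAOX was at least 2-fold higher, and the other 7 lay within 2-fold. SMOX, the spermine oxidase, was 2.83-fold lower and SMS, the spermine synthase, 2.38-fold lower. PAOX, which oxidises acetylated polyamines, was 2.31-fold higher. All 10 genes were above the floor on both arrays. None was past 3-fold in either direction (0 higher and 0 lower), where 2.34% of 13229 genes were past that limit upwards and 2.11% downwards. These 13229 are the genes over the floor in either culture or both. At a limit of 2-fold, 1 of the 10 was higher (10%, against 6.86% of all genes) and 2 were lower (20%, against 5.50% of all genes). By any amount, 4 were higher and 6 lower, with ratios between -1.50 and 1.21 on the log2 scale. The median log2 ratio of spheroid over monolayer was -0.23 for the 10 genes and 0.04 for all genes above the floor. When _s_at and _x_at probe sets, whose probes can match several transcripts, were left out, it was 0.07 for the 7 genes left and 0.06 for all genes, so the gap to all genes depends on which probe sets and genes are counted. Scaling each array by its own median moved every ratio by -0.14, which turned the small positive ratios of ODC1 and AMD1 negative (-0.07 and -0.03) and took SMOX past 3-fold (-1.64).

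Disagreement between probe sets of 1 gene is the only measure of spread within a gene in these data. Over 5453 genes with several probe sets above both floors, the log2 ratios of the brightest pair differed with an SD of 0.50. This is the SD of a difference between ratios, not the error of a single ratio. Both ratios come from the same 2 arrays, so it holds no spread between repeat cultures. Across the 11528 genes above the floor on both arrays, log2 ratios had a robust SD of 0.53. This is a spread between genes, not the error of 1 gene's ratio. Of the 10 genes, 7 had several probe sets, and in 6 of these all probe sets went one way. SAT1 was the exception. Log2 ratios without a floor spread least within OAZ1 (0.09) and most within PAOX (1.63). Counted by probe set without a floor, 11 were higher in spheroid culture and 11 lower.

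**Figure D1:**
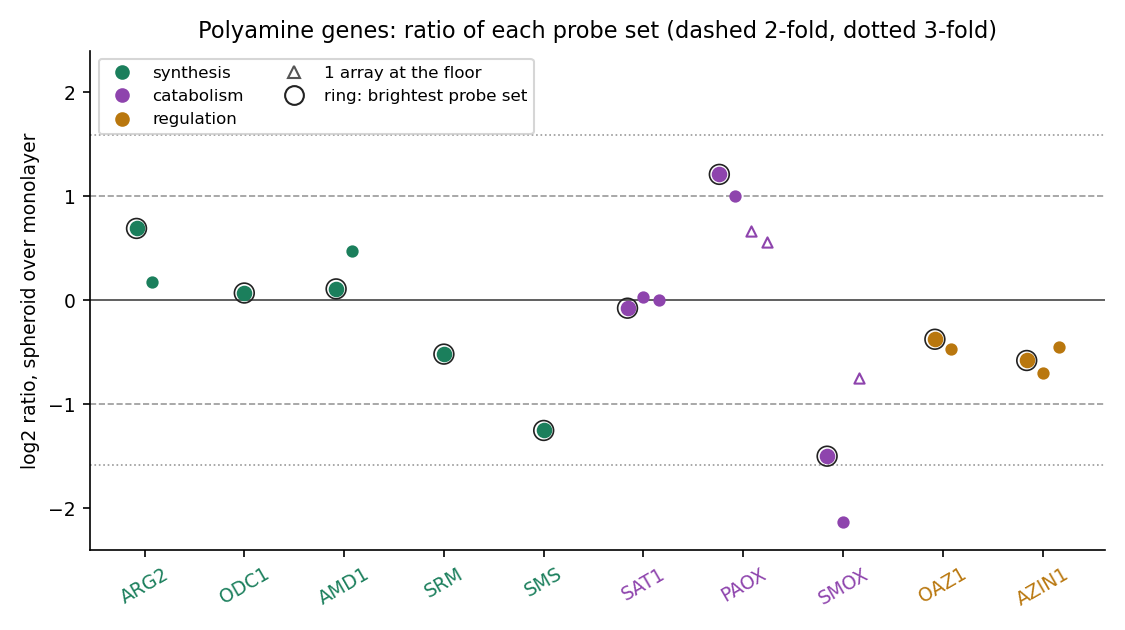
Log2 ratio of spheroid over monolayer for each probe set of the 10 genes, with floors applied, a ring on the probe set from which the gene was read and triangles where 1 array was at the floor. The SMOX and SMS points lie below 0, the PAOX points above it, and the SAT1 points next to it.

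Within synthesis, ODC1 and AMD1 had near-equal signals in both cultures, and SMS, the last step, had a lower one in spheroid culture. Of the 5 genes, 3 were higher and 2 lower, with a median log2 ratio of 0.07. ODC1 (chr2:10439968-10448327), the rate-limiting enzyme, read 12041 in spheroid culture and 11473 in monolayer, a 1.05-fold difference on its only probe set. AMD1 (chr6:110814617-110895713) read 2386 in spheroid culture and 2212 in monolayer on its brighter probe set, 1.08-fold higher. Its second probe set read 2101 in spheroid culture and 1513 in monolayer, 1.39-fold higher. The log2 ratios of ODC1 (0.07) and of the AMD1 probe sets (0.11 and 0.47) have no repeat culture to be judged against.

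SRM (chr1:11054589-11060018), which joins an aminopropyl group to putrescine, read 2086 in spheroid culture and 2987 in monolayer. This was 1.43-fold lower, and 16.0% of genes had a log2 ratio as low or lower. SMS (chrX:21940709-21994837), which adds the next such group to make spermine, read 1994 in spheroid culture and 4750 in monolayer. It was 2.38-fold lower, and 3.54% of genes were as low or lower. The log2 ratio of SMS minus that of SRM was -0.73. SRM and SMS have 1 probe set each, so neither has a second reading, and the name of the SMS probe set ends in _s_at, which marks probes that match more than 1 transcript.

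ARG2 (chr14:67619920-67651708), the mitochondrial arginase that releases ornithine, was close to the floor. Its brighter probe set read 270.0 in spheroid culture and 167 in monolayer, 1.61-fold higher, and 13.3% of genes had a log2 ratio as high or higher. The other read 179 in spheroid culture and 159 in monolayer, 1.13-fold higher.

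The 3 catabolic genes went separate ways, and their median log2 ratio was -0.08. SAT1 (chrX:23783173-23786210), the acetyltransferase that cells are known to induce when polyamines are in excess, differed little. Its 3 probe sets read 27853, 26767 and 15943 in spheroid culture, against 29365, 26177 and 15882 in monolayer. Their log2 ratios were -0.08, 0.03 and 0.01, so the direction depends on the probe set.

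SMOX (chr20:4148828-4187727), the spermine oxidase, had the lowest ratio. Its brightest probe set read 2936 in spheroid culture and 8303 in monolayer, 2.83-fold lower, and 2.43% of genes were as low or lower. A second read 688 in spheroid culture and 3027 in monolayer, 4.40-fold lower. The third read 93.6 in spheroid culture, under the floor, and 200.5 in monolayer, at least 1.68-fold lower. All 3 probe sets were thus lower in spheroid culture, and 1 of them was past 3-fold.

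PAOX (chr10:133379262-133391694), the peroxisomal oxidase of acetylated polyamines, was the gene with the highest ratio, at low signals. Its brightest probe set read 439.6 in spheroid culture and 189.9 in monolayer, 2.31-fold higher, and 4.57% of genes were as high or higher. The next read 268 in spheroid culture and 134 in monolayer, 2.01-fold higher. The other 2 read 172 and 159 in spheroid culture, against 107 and 32.0 in monolayer, both under the monolayer floor, and were at least 1.59-fold and at least 1.47-fold higher. All 4 probe sets were higher in spheroid culture.

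Neither of the 2 regulators of ODC1 protein was past 2-fold. Their log2 ratios were -0.38 for OAZ1 and -0.58 for AZIN1, with no repeat culture to judge them against. OAZ1 (chr19:2269486-2273488), whose antizyme is made by a polyamine-driven frameshift, read 17242 in spheroid culture and 22360 in monolayer, 1.30-fold lower, and its second probe set was 1.38-fold lower (13980 in spheroid culture and 19305 in monolayer). Of all genes, 22.8% were as low or lower than OAZ1. AZIN1 (chr8:102826302-102864200), an ODC1-like protein without the enzyme activity that binds antizyme, read 2337 in spheroid culture and 3491 in monolayer, 1.49-fold lower, and 13.7% of genes were as low or lower. Its other probe sets were 1.63-fold lower (1988 in spheroid culture and 3239 in monolayer) and 1.36-fold lower (146 in spheroid culture and 199 in monolayer). The ratios of antizyme and its inhibitor were 0.20 apart on the log2 scale (OAZ1 minus AZIN1). Log2 ratios of probe sets spread by 0.09 within OAZ1 and by 0.26 within AZIN1. No repeat culture shows how much a difference between the 2 genes would vary, so its size cannot be judged.

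**Figure D2:**
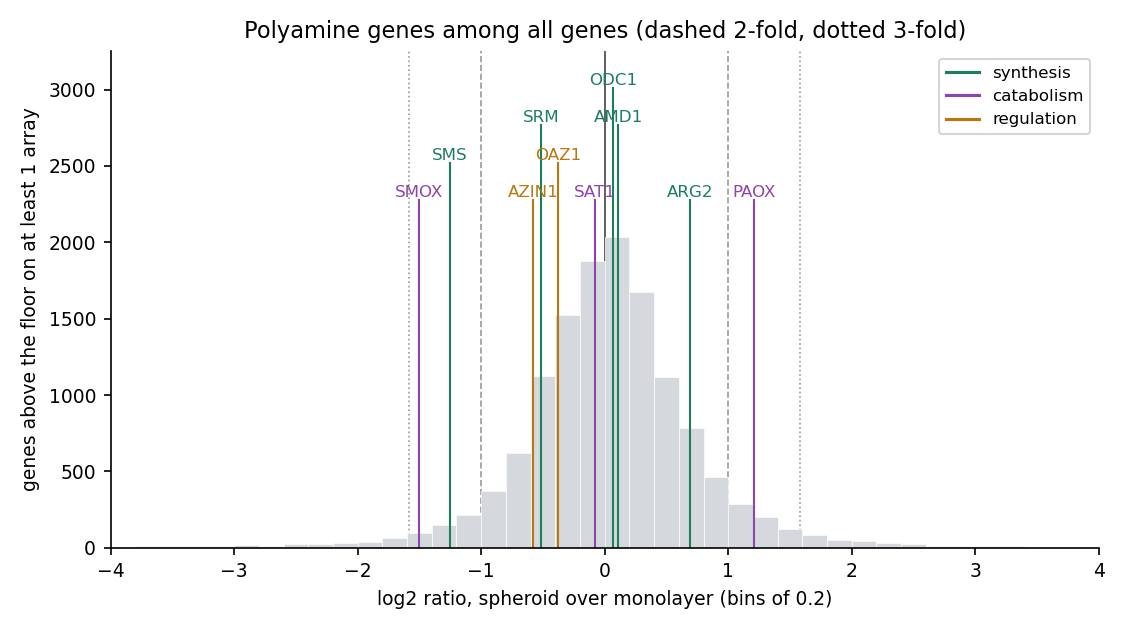
Histogram of log2 ratios, spheroid over monolayer, for the 13229 genes over the floor in either culture or both (vertical axis: number of genes in bins of 0.2), with a coloured line for each polyamine gene. SMOX and SMS fall in the left tail and PAOX in the right one, each between 2-fold and 3-fold, and the other 7 within 2-fold.

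Genes around the pathway were read from 6 lists of 46 genes, of which 43 had a probe set of their own and 38 exceeded the floor in either culture or both. At the 2-fold limit 4 of the 38 were higher (10.5%, against 6.86% of all genes) and 5 lower (13.2%, against 5.50%), with 29 between and a median log2 ratio of 0.04. For ornithine and arginine supply, 6 of 7 measured genes were above the floor, 1 was higher and 0 lower, and the median was 0.28. The higher gene was AGMAT, named for agmatinase, with 788 in spheroid culture and 386 in monolayer, 2.04-fold higher, and all 3 of its probe sets were higher. In the methionine cycle and methylthioadenosine salvage, where AMD1's substrate is made and the by-product of SRM and SMS recycled, 1 of 10 genes was higher, 1 lower and 8 between (median 0.02). MTAP, among the 8, read 511 in spheroid culture and 471 in monolayer. Only 2 of its 6 probe sets were above the floor, and these went opposite ways (log2 ratios of -0.25 and 0.12). Whether the salvage route was active in these cells was not tested. ADI1, the dioxygenase of the salvage route, read 6404 in spheroid culture and 2561 in monolayer, 2.50-fold higher. AHCY, which clears S-adenosylhomocysteine, read 3977 in spheroid culture and 8166 in monolayer, 2.05-fold lower.

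Hypusination consumes spermidine to modify the translation factor eIF5A. Of its 4 genes 1 was lower and 3 lay between (median -0.25). EIF5A read 891 in spheroid culture and 1984 in monolayer, 2.23-fold lower, with log2 ratios of -1.16 to -0.59 over 3 probe sets. EIF5A has near-identical copies in the genome, so its signal may not be its own alone. DHPS and DOHH, the enzymes that make hypusine, had log2 ratios of -0.20 and -0.29. DHPS probe sets ran from -0.67 to -0.09, and only 1 of the 3 DOHH probe sets was above the floor. EIF5A2 went the other way, with 710 in spheroid culture and 422 in monolayer, 1.68-fold higher. Its 3 probe sets did not all go one way (log2 ratios of -0.02 to 0.75).

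Among transport genes 7 of 9 measured were above the floor, and 1 was higher, 2 lower and 4 between (median -0.35). The 4 between had log2 ratios of 0.32 (ATP13A2), 0.26 (SLC18B1), -0.35 (ATP13A3) and -0.81 (SLC47A1). A second ATP13A3 probe set was at -1.20, past 2-fold lower. The arginine carriers SLC7A1 and SLC7A2 went opposite ways. SLC7A1 read 2204 in spheroid culture and 5203 in monolayer, 2.36-fold lower, and SLC7A2 read 2229 in spheroid culture and 869 in monolayer, 2.56-fold higher. SLC3A2, the shared heavy chain of several amino acid carriers, read 2701 in spheroid culture and 5831 in monolayer, 2.16-fold lower. None of the 6 other polyamine enzymes and paralogs above the floor was past 2-fold in either direction (0 higher and 0 lower, median -0.02).

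MYC, a transcription factor of which ODC1 is a known target, was the only one of the 38 genes at least 3-fold lower. Its only probe set read 2342 in spheroid culture and 7084 in monolayer, 3.03-fold lower. MXD1, which competes with MYC for MAX, read 433 in spheroid culture and 95.6 in monolayer, under the floor, and was at least 4.01-fold higher. The other 3 MYC network genes above the floor lay within 2-fold (median of all 5, 0.17). Of the 7 polyamine genes with a window, ODC1 (at the start at 10448012 only) and SRM held CACGTG, with log2 ratios of 0.07 and -0.52. The 5 without it ran between -1.25 and 0.69 (SMS -1.25, OAZ1 -0.38, SAT1 -0.08, AMD1 0.11 and ARG2 0.69). With 2 genes against 5, no conclusion can be drawn from comparing these ratios. Genes above the floor with CACGTG in a window numbered 1320 and had a median log2 ratio of 0.05, and the 9389 with a window but no such letters had 0.03. Whether MYC or MXD1 acted on any of these genes was not tested.

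**Figure D3:**
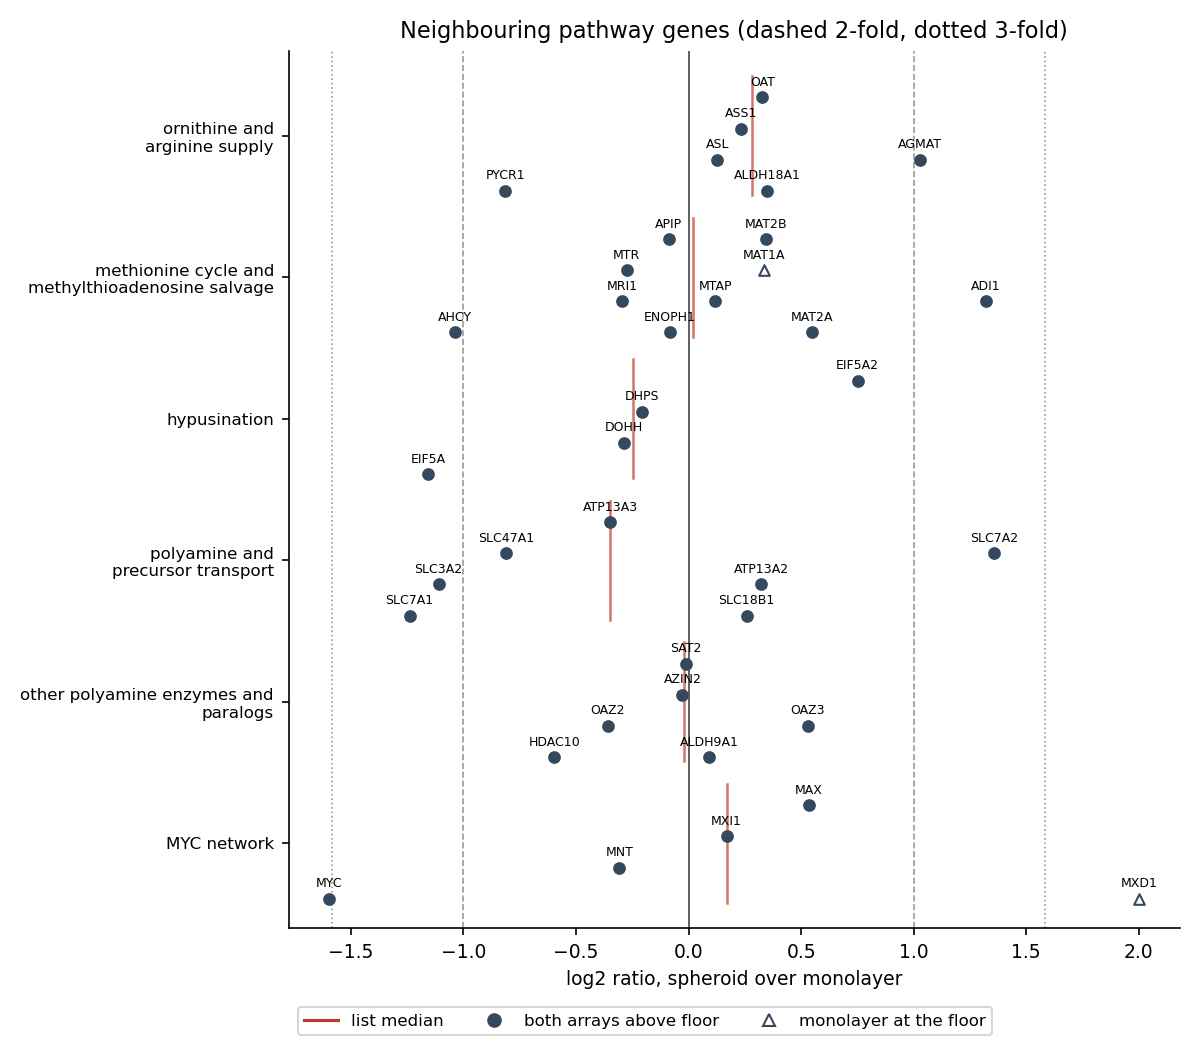
Log2 ratio of spheroid over monolayer for the 38 genes above the floor in 6 lists around polyamine metabolism, with a red line at each list's median and triangles where monolayer was at the floor; vertical position within a list only separates the labels. MYC at -1.60 and MXD1 at 2.00 stand at the ends, and most genes lie within 2-fold.

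Directions held under the other ways of processing tried, except for the 3 genes nearest to 0. SMS kept log2 ratios of -1.39 to -1.22 and was past 2-fold in all 7 settings that gave it a value. SMOX ran between -2.14 and -0.75, past 2-fold in 7 of 8 settings and past 3-fold in 2. PAOX ran between 0.56 and 1.21, past 2-fold in 5 of 7. ODC1 and AMD1 kept their direction in 7 of 8 settings each and SAT1 in 5 of 7.

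**Figure D4:**
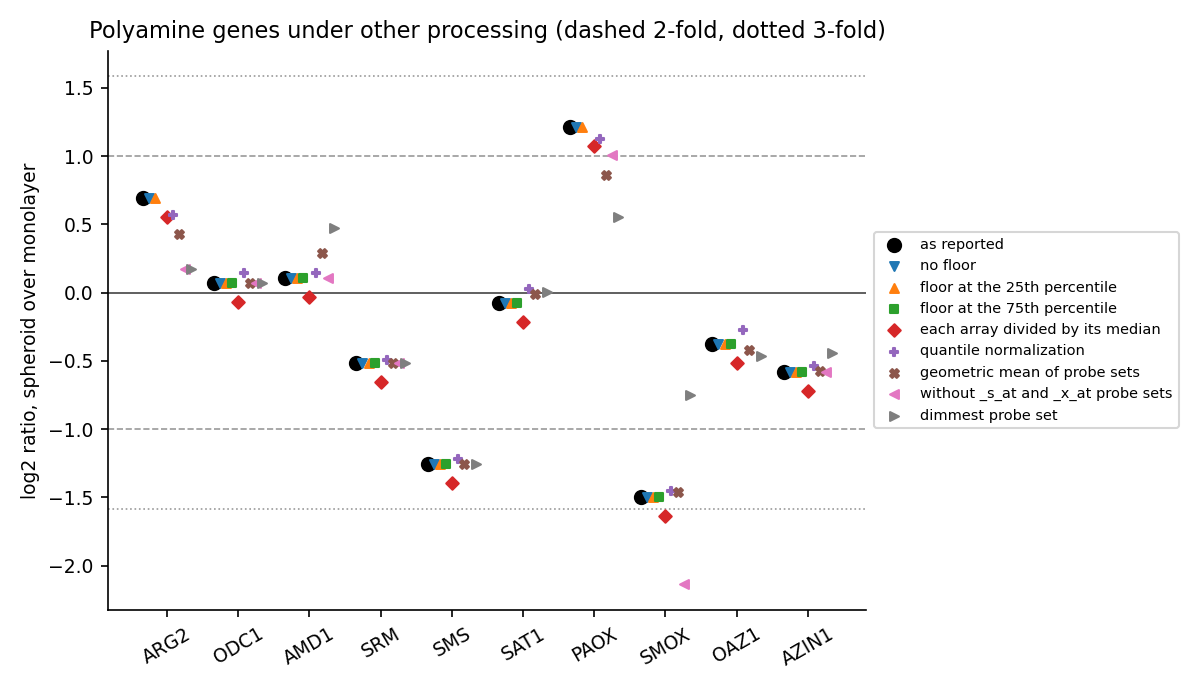
Log2 ratio of spheroid over monolayer for each polyamine gene as reported (black) and under 8 other ways of processing the same arrays. SMS and SMOX stay below 0 and PAOX above it throughout, while ODC1, AMD1 and SAT1 fall on either side of 0.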

How the data were processed

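RNA of A549 cells in spheroid culture and in monolayer was hybridised to 1 array each. The intensity values deposited by the authors are MAS5 signals on a linear scale, 1 per probe set. Per the labels MAS5 and GCOS were used, with no version given in the sources used here, and the study's methods name GeneSpring GX for later steps. No further scaling was applied. The floor was the median signal of each array, without the 62 control probe sets; lower signals were set to it before the spheroid over monolayer ratio was put on a log2 scale. The platform annotation names 1 gene for 41097 probe sets and several for 1801. Symbols were updated by Entrez identifier for 41043. Gene positions are RefSeq gene spans on GRCh38.p14.

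The 10 polyamine genes, the lists around them, the markers and the limits were chosen with earlier results of these data known. All 10 genes are named, and of the lists up to 3 genes per direction past 2-fold. MTAP, DHPS, DOHH, EIF5A2, ATP13A2, ATP13A3, SLC18B1 and SLC47A1 are named besides. With 1 array per culture no test was run, and the number of arrays limits the precision. The alternatives tried were a floor left out or moved to the 25th or 75th percentile, division of each array by its median, quantile normalization, a gene's probe sets combined as a geometric mean, its dimmest probe set, omission of names ending in _s_at or _x_at, and fold limits of 2 and 5. The steps were tested on simulated data with large changes in bright genes only. Changes near 2-fold and dim probe sets were not tested in this way. Python 3.11.15, pandas 2.3.3, numpy 2.4.6 and matplotlib 3.10.9 were used. The submitters' free description, which names a hepatoma line and a compound, was not used to assign samples.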

Additional observations from a re-analysis of the deposited data

How the results depend on the processing

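No paired analysis was possible because each culture has 1 array. With the floor at the 75th percentile, with the geometric mean of probe sets and with the dimmest probe set, 0 polyamine genes were at least 2-fold higher, against 1 as reported. 1 gene, SMOX, was at least 3-fold lower with each array divided by its median (-1.64 on the log2 scale) and 1, again SMOX (-2.14), without probe sets ending in _s_at or _x_at, against 0 as reported. 1 was at least 2-fold lower without those probe sets, where SMS has no value, and 1 with the dimmest probe set, where SMOX was at the floor in spheroid culture (-0.75), against 2 as reported. A limit of 2-fold in place of 3-fold gave 1 higher and 2 lower, and a limit of 5-fold gave 0 and 0. The median log2 ratio, -0.23 against 0.04 for all genes as reported, was -0.45 over 8 genes against -0.01 with a 75th percentile floor, and -0.37 against -0.10 after division by the median. It was -0.12 against -0.00053 after quantile normalization, and 0.07 over 7 genes against 0.06 without the _s_at and _x_at probe sets, so the gap to all genes was smaller in the last 2 of these settings. ARG2, at 0.69 as reported, fell to 0.17 on its dimmer probe set. Signals of ARG2 and PAOX were under the 75th percentile on both arrays, so their ratios rest on dim probe sets.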
